A study of Homo sapiens with 6 samples.

Results

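YAP1 and its paralog WWTR1 (TAZ), the TEAD1 factor that carries them to DNA, and 7 genes known as targets or regulators of the pathway (ANKRD1, CCN1, CCN2, AMOTL2, LATS2, NUAK2 and NT5E) were followed in T24, an established human bladder cancer line. The 10 genes were taken by name, with identifiers matched to current symbols, out of 11078 genes in the table, and all 10 were among the 10008 genes tested. RNA-seq of total RNA was done in cells carrying a lentiviral hairpin against the long noncoding RNA BLACAT3 (shBLACAT3, genotype BLACAT3 knockdown) and in cells carrying a lentiviral control hairpin (shControl, genotype WT), all puromycin-selected stable strains, with 3 libraries per group. The labels name a single hairpin against BLACAT3 and do not say whether a strain was a clone or a pool, or whether replicates were separate cultures, so every error and p-value reflects the spread of these 3 libraries per group and no more, and that spread may be technical. The genes were chosen with this contrast already known, ANKRD1 because it had the highest log2 fold change of all tested genes. Their differences between the groups are therefore a description, and no p-value is given for them.

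YAP and TAZ are transcriptional coactivators that do not bind DNA by themselves. When the Hippo kinases MST and LATS are active, LATS phosphorylates both proteins and they are held in the cytoplasm or degraded. When the kinases are silent, as on a stiff matrix or at low cell density, YAP and TAZ enter the nucleus and bind TEAD factors. ANKRD1, CCN1 and CCN2 are the usual readouts of that activity, and LATS2, AMOTL2 and NUAK2 are targets that feed back on the pathway. Transcript levels of YAP1 and WWTR1 do not report how much of either protein is in the nucleus.

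TEAD factors recognise the letters CATTCC, read as GGAATG on the other strand. The 250 bases before the start were read from RefSeq (GRCh38.p14) for the 8 members with an entry (10 promoters, since AMOTL2 and WWTR1 have 2 each), and 5 of these genes, ANKRD1, CCN2, AMOTL2, YAP1 and NUAK2, held the letters on at least 1 strand. Among all 35116 promoters of this length 11.9% held them, and among 11916 promoters of tested genes 9.58%. These shares count single promoters and not genes. The members were taken as known targets or regulators of the pathway, so nothing is read from their share. The promoters of ANKRD1, CCN2, NUAK2 and NT5E are shown because their genes gave the contrasting values described next, with CATTCC or GGAATG in capitals. They lie at chr10:90921088-90921337 (minus strand), chr6:131951373-131951622 (minus), chr1:205321746-205321995 (minus) and chr6:85449833-85450082 (plus).
ANKRD1: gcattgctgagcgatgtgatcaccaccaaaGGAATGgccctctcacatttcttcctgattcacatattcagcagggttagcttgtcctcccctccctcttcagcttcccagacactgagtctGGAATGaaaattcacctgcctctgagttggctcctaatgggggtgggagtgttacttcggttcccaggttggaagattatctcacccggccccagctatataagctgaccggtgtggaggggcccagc
CCN2: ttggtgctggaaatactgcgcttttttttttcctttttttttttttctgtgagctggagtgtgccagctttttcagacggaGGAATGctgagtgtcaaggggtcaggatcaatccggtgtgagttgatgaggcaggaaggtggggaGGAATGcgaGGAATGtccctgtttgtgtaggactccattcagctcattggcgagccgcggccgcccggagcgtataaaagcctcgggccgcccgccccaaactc
NUAK2: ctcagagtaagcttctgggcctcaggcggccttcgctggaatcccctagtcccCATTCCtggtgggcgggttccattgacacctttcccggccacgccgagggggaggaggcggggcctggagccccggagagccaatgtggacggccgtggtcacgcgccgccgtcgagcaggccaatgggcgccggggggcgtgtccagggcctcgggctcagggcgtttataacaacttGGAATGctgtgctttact
NT5E: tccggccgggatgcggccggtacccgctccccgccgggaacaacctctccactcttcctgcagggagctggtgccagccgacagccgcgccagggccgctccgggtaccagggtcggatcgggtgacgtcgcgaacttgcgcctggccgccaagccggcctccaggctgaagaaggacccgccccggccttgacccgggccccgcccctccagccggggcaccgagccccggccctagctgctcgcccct
CCN2 held 3 matches, ANKRD1 and NUAK2 held 2 each, and the NT5E window held 0. In ANKRD1 the matches began 220 and 128 bases before the start, in CCN2 169, 104 and 95 bases before it, and in NUAK2 197 and 18 bases before it. The letters TGANTCA, a loose form of the AP-1 site in which N is any base, were searched on both strands. They were found once in ANKRD1, where they read TGATTCA and did not overlap a TEAD match, and in 4.0% of promoters of tested genes. The SRF CArG box was searched on both strands too, and no member promoter held it in this window (1.12% of promoters of tested genes did). The TATA letters TATAAA, on either strand, were found in CCN2 and NUAK2 (in NUAK2 on the other strand) and in 5.48% of promoters of tested genes. Only these exact letters were searched, so variants of a TATA box were not counted in any promoter. A match is a run of letters, not a measured binding site.

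The members did not move together. On the log2(FPKM + 1) scale (FPKM, fragments per kilobase scaled to library size; fitted with limma over all 10008 genes, Benjamini-Hochberg adjusted p under 0.05), 3 of the 10 were called: ANKRD1 higher, and NT5E and NUAK2 lower in shBLACAT3 cells. Over all tested genes 9.37% were called, 2.57% higher and 6.8% lower. That balance moved with single libraries, since 85 genes were called higher and 302 lower without shControl replicate 1, and 583 higher and 732 lower without shBLACAT3 replicate 3, against 257 and 681 with all 6. The groups did not overlap in 5 of the 10 members, 2 higher and 3 lower, against 32.8% of all tested genes, of which 14.1% were higher and 18.6% lower. Since the genes were chosen on this contrast, the calls only describe them and nothing is read from these shares. In 6 members the log2 difference was smaller than 0.1 in size, and the median over the 10 was -0.05, against -0.0025 over all tested genes.

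**Figure D1:**
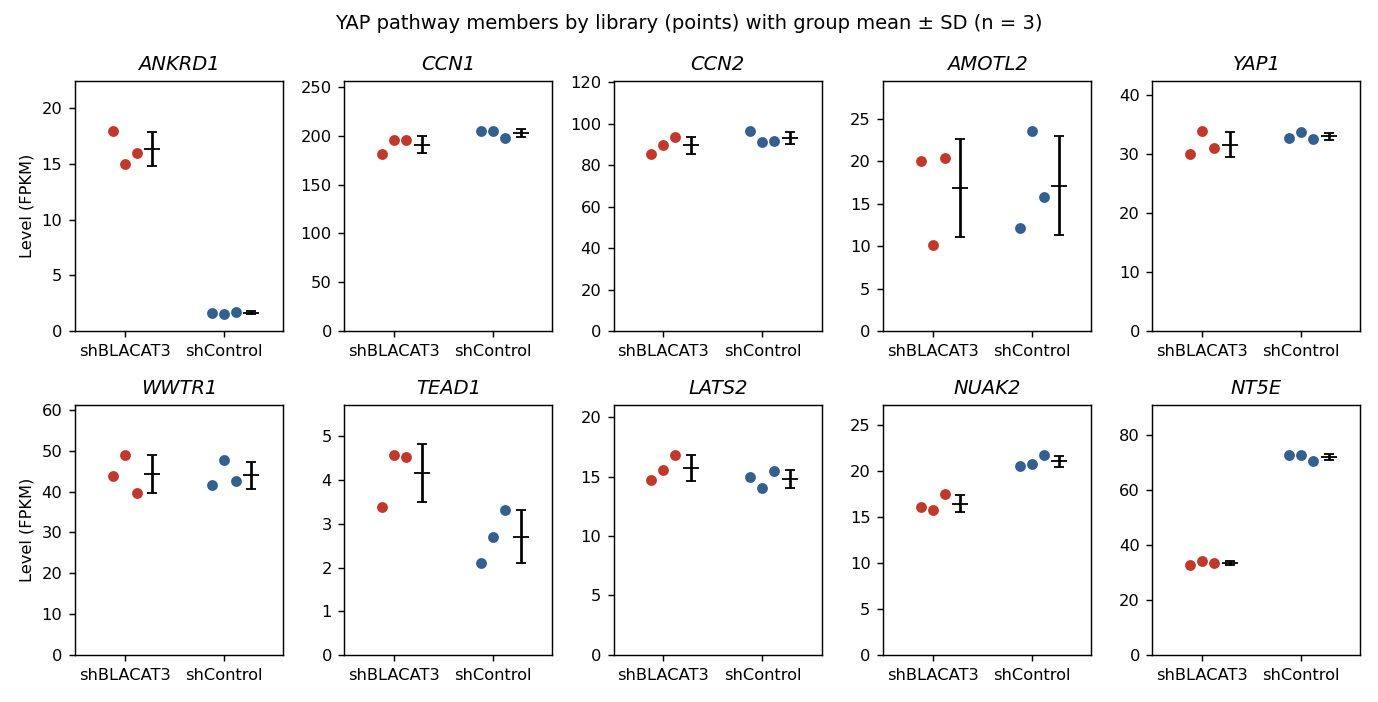
Level in FPKM (vertical axes, each from 0) of the 10 members in every library, shBLACAT3 in red on the left and shControl in blue on the right; bars are the mean ± SD (n = 3). ANKRD1 stands at 15.0 to 17.9 FPKM in shBLACAT3 against 1.53 to 1.77 FPKM in shControl libraries and NT5E at 32.9 to 34.1 FPKM in shBLACAT3 against 70.7 to 72.8 FPKM in shControl libraries, while AMOTL2 is spread about equally wide in both groups.

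Of the 3 classical target genes ANKRD1, chosen for its fold change, was the only one called, which is a description and no test. ANKRD1 encodes an ankyrin repeat protein that can act as a nuclear cofactor and is well known from heart muscle. It stood at 17.9, 15.0 and 16.0 FPKM in shBLACAT3 replicates 1, 2 and 3, against 1.67, 1.53 and 1.77 FPKM in shControl replicates 1, 2 and 3. The lowest shBLACAT3 library was far above the highest shControl library. The ratio of the group means was 9.86, and the log2 fold change was 2.70 (SE 0.09, 95% interval 2.49 to 2.92), which understates the change because 1 is added to a low level. With 0.1 added instead it was 3.22. In bulk RNA, more cells expressing a gene and more RNA per cell cannot be told apart, here and in what follows.

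CCN1 (CYR61) and CCN2 (CTGF) encode secreted matricellular proteins that bind integrins, and both were among the most abundant transcripts of the set. CCN1 stood at 181, 195 and 196 FPKM in shBLACAT3 cells, against 204, 205 and 197 FPKM in shControl cells. All 3 shBLACAT3 libraries lay below the 3 shControl libraries, by a small margin, and the gene was not called. CCN2 stood at 85.6, 89.6 and 93.7 FPKM in shBLACAT3 cells, against 96.5, 91.5 and 91.8 FPKM in shControl cells, and these ranges overlapped. The log2 differences were -0.08 (95% interval -0.21 to 0.05) for CCN1 and -0.06 (95% interval -0.19 to 0.08) for CCN2. The upper ends of both intervals, 0.05 and 0.08, lay far below the log2 fold change of ANKRD1, a gene chosen for that value. The intervals reflect the spread of these libraries only, so the contrast is a description.

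The proportions between these readouts follow from the levels given above and restate them. The ratio of the CCN1 level to the CCN2 level was 2.13 ± 0.05 in shBLACAT3 cells and 2.17 ± 0.06 in shControl cells (SD, n = 3 each). The ANKRD1 level amounted to 18.2 ± 2.35% of the CCN2 level in shBLACAT3 cells and 1.77 ± 0.13% in shControl cells. Of their relatives, CCN3, another matricellular protein of the same family, fell, with 0.11 ± 0.02 FPKM in shBLACAT3 cells and 1.92 ± 0.30 FPKM in shControl cells (log2 fold change -1.38, SE 0.09, limma adjusted p 0.00037). Its mean over all libraries was just above the filter of 1 FPKM, which it passed only through its shControl level, and with 0.1 added in place of 1 the log2 fold change was -3.23. ANKRD2, a muscle ankyrin repeat protein related to ANKRD1, had 0.59 ± 0.06 FPKM in shBLACAT3 cells and 0.37 ± 0.08 FPKM in shControl cells, under the filter, and was not tested.

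NT5E encodes CD73, the surface enzyme that turns extracellular AMP into adenosine, and belongs to a YAP and TAZ signature found across cancers. It stood at 32.9, 34.1 and 33.3 FPKM in shBLACAT3 cells, against 72.8, 72.6 and 70.7 FPKM in shControl cells. Replicates were tighter than in almost any other gene: its within-group SD on the log2 scale was at percentile 0.6 of all tested genes. The mean was 2.15-fold lower in shBLACAT3 cells, and the log2 fold change was -1.08 (SE 0.05, 95% interval -1.20 to -0.97). NT5E thus had the opposite direction to ANKRD1 within the same set of target genes.

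The feedback genes gave smaller or less certain differences. NUAK2, a kinase of the AMPK-related family, stood at 16.1, 15.8 and 17.5 FPKM in shBLACAT3 cells, against 20.6, 20.8 and 21.8 FPKM in shControl cells. The groups were apart, with a log2 fold change of -0.34 (SE 0.07, 95% interval -0.49 to -0.18). NUAK2 was no longer called without shBLACAT3 replicate 1 (log2 fold change -0.32) or 2 (-0.31) or without shControl replicate 1 (-0.35), 2 (-0.35) or 3 (-0.31), nor when the libraries were scaled to a common median (-0.33). LATS2, the kinase that phosphorylates YAP, stood at 14.7, 15.6 and 16.8 FPKM in shBLACAT3 cells, against 14.9, 14.0 and 15.4 FPKM in shControl cells, a log2 difference of 0.08 (95% interval -0.10 to 0.26).

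AMOTL2, an angiomotin family scaffold that binds YAP at cell junctions, varied more within the groups than between them. It stood at 20.0, 10.2 and 20.4 FPKM in shBLACAT3 replicates 1, 2 and 3, against 12.1, 23.6 and 15.8 FPKM in shControl replicates 1, 2 and 3. The highest library was 2.0 times the lowest in shBLACAT3 cells and 1.94 times in shControl cells, and the within-group SD on the log2 scale was at percentile 96.6 of all tested genes. The log2 difference was -0.03 with a 95% interval of -0.79 to 0.73, so a change of up to about that size was not detectable. Its sign turned without shBLACAT3 replicate 2 (0.27) or shControl replicate 2 (0.21).

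**Figure D2:**
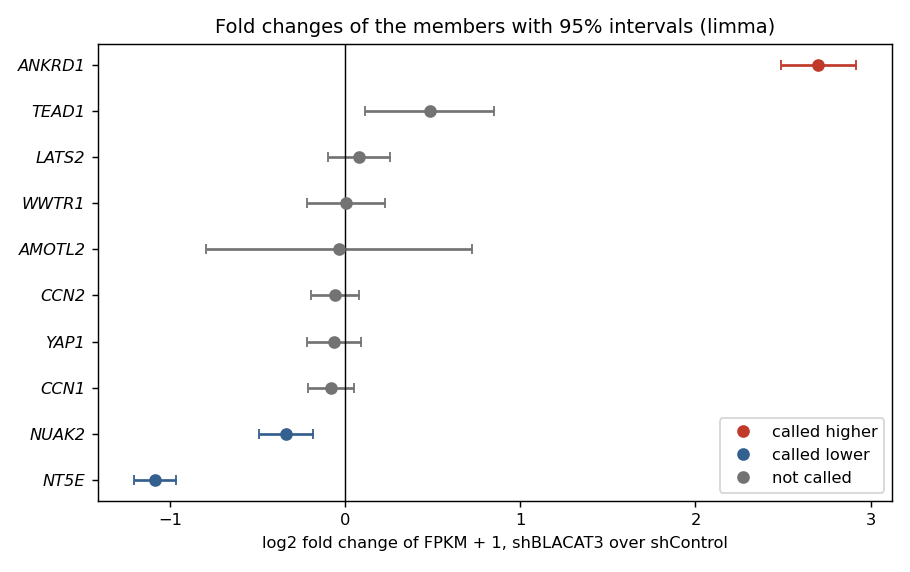
The log2 fold change of FPKM + 1, shBLACAT3 over shControl (horizontal axis), with its 95% interval for each member, coloured by whether limma called the gene over all 10008 genes. ANKRD1 stands alone at 2.70, NT5E lies at -1.08, and AMOTL2 has the widest interval, -0.79 to 0.73.

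The transcripts of the coactivators themselves overlapped between the groups and were not called. YAP1 stood at 29.9, 33.8 and 30.9 FPKM in shBLACAT3 cells, against 32.7, 33.6 and 32.6 FPKM in shControl cells (log2 difference -0.06, 95% interval -0.22 to 0.09). WWTR1 stood at 43.9, 49.0 and 39.7 FPKM in shBLACAT3 cells, against 41.6, 47.8 and 42.6 FPKM in shControl cells. Its log2 difference was 0.0044 (95% interval -0.22 to 0.23), with a sign that turned without shBLACAT3 replicate 2 (-0.07) or without shControl replicate 1 (-0.03) or 3 (-0.02). WWTR1 was the more abundant of the pair in every library, since the ratio of the YAP1 level to the WWTR1 level was 0.681 to 0.779 in shBLACAT3 cells and 0.704 to 0.785 in shControl cells.

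Among the DNA-binding partners, TEAD1 stood at 3.39, 4.58 and 4.52 FPKM in shBLACAT3 cells, against 2.1, 2.71 and 3.32 FPKM in shControl cells. The lowest shBLACAT3 library was just above the highest shControl library, the ratio of the means was 1.54, and the log2 difference was 0.48 (SE 0.16, 95% interval 0.11 to 0.85). TEAD1 was not called over all genes. TEAD4 was the most abundant of the 4 TEAD genes per length, with 56.3 ± 1.86% of their summed level in shBLACAT3 cells and 52.1 ± 1.45% in shControl cells (SD, n = 3 each), and TEAD1 held 11.6 ± 2.42% in shBLACAT3 cells and 8.04 ± 1.52% in shControl cells. TEAD3 fell, with 1.88 ± 0.03 FPKM in shBLACAT3 cells and 2.73 ± 0.15 FPKM in shControl cells (log2 fold change -0.37, SE 0.07, limma adjusted p 0.028). That call was lost under quantile normalization (adjusted p 0.053) and without shBLACAT3 replicate 1 or 2 or any shControl library (0.062 to 0.12). The summed level of the 4 genes was 38.0, 33.6 and 37.1 FPKM in shBLACAT3 cells, against 32.7, 32.7 and 35.3 FPKM in shControl cells, and these ranges overlapped.

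**Figure D3:**
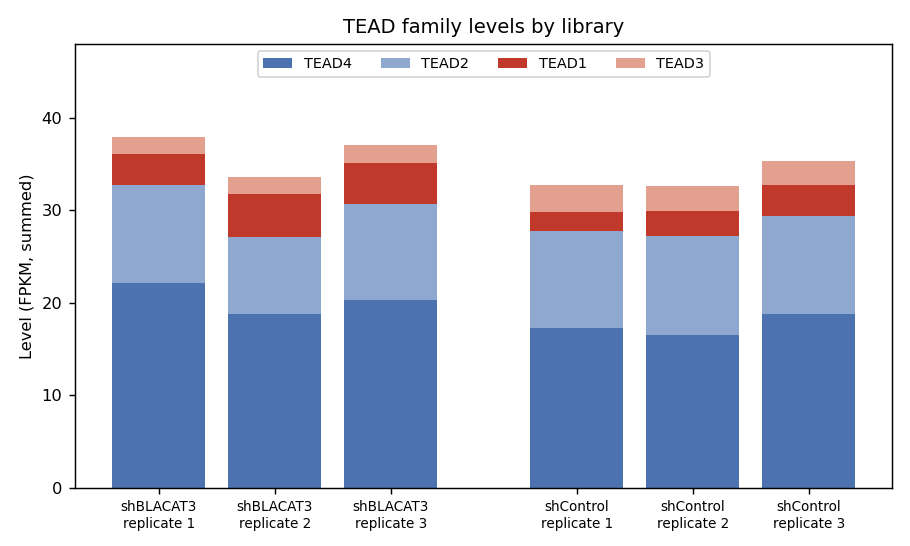
Level in FPKM (vertical axis) of the 4 TEAD genes stacked in each library, the 3 shBLACAT3 libraries left of the 3 shControl libraries. TEAD4 takes 50.4 to 58.4% of each bar, and the TEAD1 part is taller in shBLACAT3 (3.39 to 4.58 FPKM) than in shControl libraries (2.1 to 3.32 FPKM).

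By level per length, the order of the set in shBLACAT3 cells was CCN1, CCN2, WWTR1, NT5E, YAP1, AMOTL2, NUAK2, ANKRD1, LATS2 and TEAD1, against CCN1, CCN2, NT5E, WWTR1, YAP1, NUAK2, AMOTL2, LATS2, TEAD1 and ANKRD1 in shControl cells. ANKRD1 was the lowest of the 10 in shControl cells, apart from all others in its range, and stood at percentile 8.01 of all tested genes. In shBLACAT3 cells it stood at percentile 74.7, its mean within the ranges of AMOTL2, NUAK2 and LATS2. NT5E lay at percentile 88.5 in shBLACAT3 cells, where its range overlapped that of YAP1, and at percentile 95.9 in shControl cells, where it did not. The remaining neighbours whose ranges overlapped were AMOTL2 with NUAK2 in shBLACAT3 cells, and NUAK2 with AMOTL2 and AMOTL2 with LATS2 in shControl cells.

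**Figure D4:**
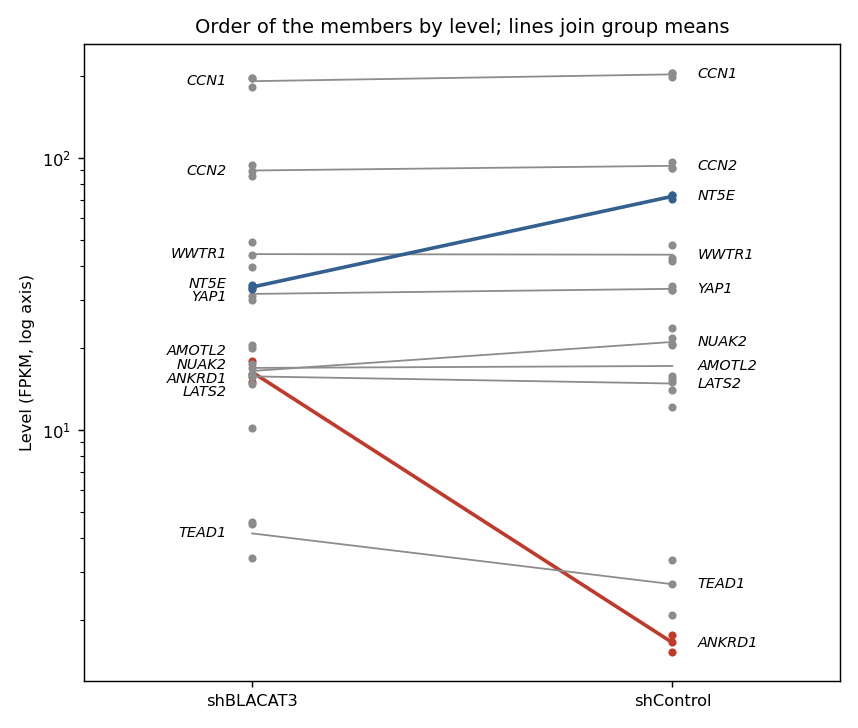
Level in FPKM (vertical log axis) of the members in shBLACAT3 (left) and shControl cells (right); points are libraries and lines join group means. ANKRD1, in red, lies at a mean of 16.3 FPKM beside AMOTL2, NUAK2 and LATS2 on the left and at 1.65 FPKM, below all others, on the right, and NT5E, in blue, lies at 33.4 FPKM on the left and 72.1 FPKM on the right.

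Of 26 tested kinases and adaptors of the Hippo cascade, 2 fell and 0 rose in limma, with a median log2 fold change of 0.02. The 2 are 7.69% of the list, against 9.37% called over all tested genes. This list and those that follow were chosen with results of these libraries known, so nothing is read from their shares. At an unadjusted p under 0.05 there were 3 lower and 1 higher, where 25.7% of all tested genes passed, 15.2% lower and 10.5% higher. MAP4K4, a kinase that can activate LATS alongside MST, fell, with 17.8 ± 0.52 FPKM in shBLACAT3 cells and 28.1 ± 0.89 FPKM in shControl cells (log2 fold change -0.63, SE 0.06, limma adjusted p 0.0014). BTRC, a ubiquitin ligase subunit that can mark phosphorylated YAP for degradation, fell by 0.40 on the log2 scale (limma adjusted p 0.023), and its call was lost without shBLACAT3 replicate 1 or any shControl library (0.058 to 0.097). The core genes STK3, STK4, SAV1, LATS1, MOB1A and MOB1B did not pass. NF2, the merlin scaffold, had 14.8, 11.0 and 11.4 FPKM in shBLACAT3 cells, against 9.33, 8.34 and 8.57 FPKM in shControl cells, without passing (limma adjusted p 0.067).

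Of 20 tested partners and binders of YAP and TAZ, 2 fell and 0 rose in limma, with a median log2 fold change of -0.07. The share called was 10.0%, against 9.37% over all tested genes, and at an unadjusted p under 0.05 there were 5 lower and 2 higher. The called genes were TEAD3 and SFN, a phosphopeptide-binding protein that can hold YAP in the cytoplasm. SFN had 85.8 ± 9.02 FPKM in shBLACAT3 cells and 118 ± 6.22 FPKM in shControl cells (limma adjusted p 0.026), and its call was lost without shBLACAT3 replicate 1 or any shControl library (0.068 to 0.10). The other angiomotins, AMOT (log2 difference -0.25, limma adjusted p 0.14) and AMOTL1 (-0.16, limma adjusted p 0.24), did not pass.

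Further target genes went both ways. Of 11 tested genes of the YAP and TAZ signature beyond the members, 1 rose and 1 fell, and the median log2 fold change was 0.08. The share called was 18.2%, against 9.37% of all tested genes. TGFB2, a growth factor of the TGF-beta family, rose, with 3.53 ± 0.40 FPKM in shBLACAT3 cells and 1.20 ± 0.13 FPKM in shControl cells (log2 fold change 1.04, SE 0.10, limma adjusted p 0.0016). IGFBP3, a binding protein of insulin-like growth factors, fell, with 0.70 ± 0.04 FPKM in shBLACAT3 cells and 3.72 ± 0.13 FPKM in shControl cells (log2 fold change -1.47, SE 0.07, limma adjusted p 9.68e-05). It reached the filter of 1 FPKM only through its shControl level, and its log2 fold change was -2.25 with 0.1 added in place of 1. The signature genes MYOF, ASAP1, AXL, F3, CRIM1, FJX1, GADD45A, DOCK5 and PTPN14 did not pass, and CCDC80, ARHGEF17 and RBMS3 were under the filter.

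Of 13 other genes often used as YAP targets, 3 rose, 4 fell and 6 did not pass, with a median log2 fold change of 0.07. The share called was 53.8%, against 9.37% of all tested genes, and as above nothing is read from it. WNT5A, a secreted Wnt ligand, rose, with 2.28 ± 0.39 FPKM in shBLACAT3 cells and 0.64 ± 0.10 FPKM in shControl cells (log2 fold change 1.0, SE 0.11, limma adjusted p 0.0028). It reached the filter only through its shBLACAT3 level, and its log2 fold change was 1.68 with 0.1 added in place of 1. EDN1, the vasoconstrictor peptide endothelin, rose with 0.61 (SE 0.07, limma adjusted p 0.0033) and THBS1, thrombospondin, with 0.46 on the log2 scale. FGF1 fell by 0.75, AREG, a ligand of the EGF receptor, by 0.50, FSTL1 by 0.48 and TUFT1 by 0.41 on the log2 scale. The calls of THBS1 (without shControl replicate 2 or 3, adjusted p 0.073 and 0.071), FSTL1 (without shBLACAT3 replicate 1 or 2 or shControl replicate 1 or 2, 0.053 to 0.11) and TUFT1 (without any 1 library, 0.054 to 0.14) were not stable.

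**Figure D5:**
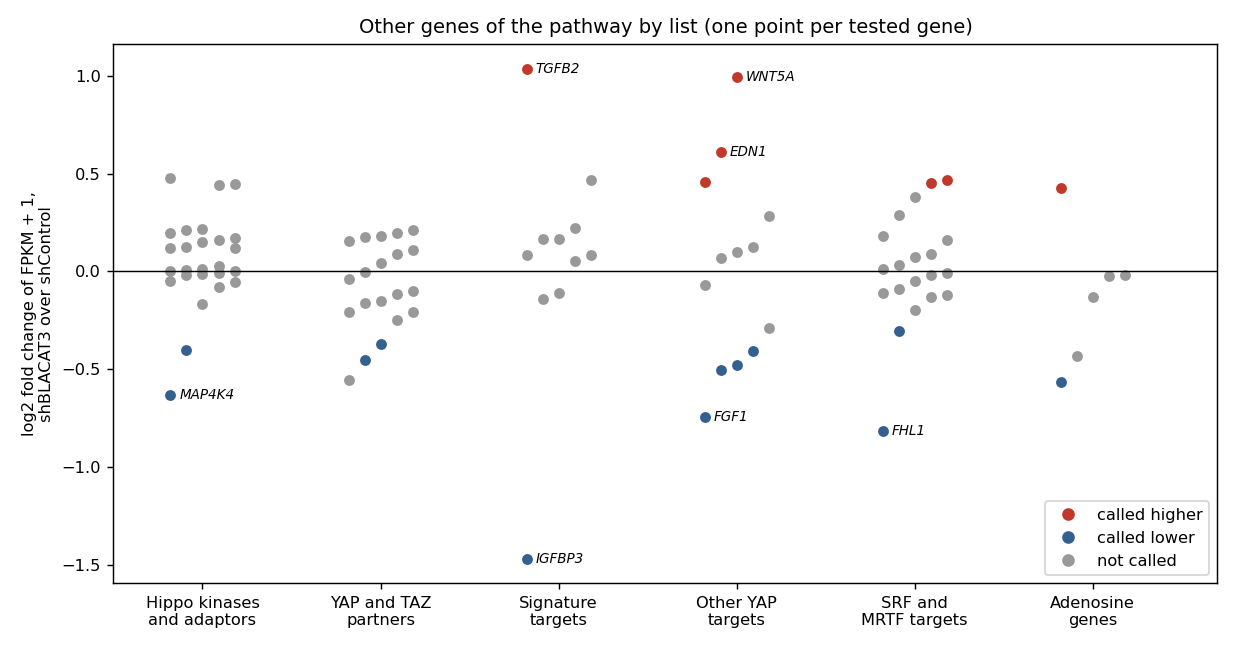
The log2 fold change of FPKM + 1, shBLACAT3 over shControl (vertical axis), of each tested gene in 6 lists of related genes; red and blue points were called higher and lower by limma. Target genes lie on both sides of 0, from IGFBP3 at -1.47 to TGFB2 at 1.04.

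ANKRD1, CCN1 and CCN2 can also be driven by SRF with the actin-sensing MRTF coactivators, and that group was examined beside them. Of 20 tested genes, 2 rose, 2 fell and 16 did not pass, with a median log2 fold change of 0.00017. ACTA2, TAGLN, MYL9 and CNN1 of this list were not analysed here, so it covers the group only in part. The share called was 20.0%, against 9.37% of all tested genes. At an unadjusted p under 0.05 in limma there were 5 higher and 2 lower, against 10.5% higher and 15.2% lower of all tested genes. VCL, vinculin, rose with 0.45 and CALD1, caldesmon, with 0.47, while FHL1 fell by 0.82 and TAGLN2 by 0.31 on the log2 scale. The limma adjusted p was 0.027, 0.034, 0.035 and 0.030 in that order. Each of these 4 calls was lost when most of the libraries were left out singly: VCL except without shControl replicate 3 (0.051 to 0.11), CALD1 except without shBLACAT3 replicate 3 (0.067 to 0.13), FHL1 except without shBLACAT3 replicate 1 or 3 (0.055 to 0.12) and TAGLN2 except without shBLACAT3 replicate 3 (0.067 to 0.11). SRF itself had a log2 difference of 0.09 (limma adjusted p 0.72).

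Beside NT5E, 6 genes of nucleotide and adenosine handling were tested, of which 1 rose and 1 fell (33.3% called, median log2 fold change -0.08). Here too nothing is read from the share against the 9.37% of all tested genes. ADORA2B, an adenosine receptor, rose, with 16.4 ± 0.99 FPKM in shBLACAT3 cells and 11.98 ± 0.04 FPKM in shControl cells (log2 fold change 0.43, SE 0.07, limma adjusted p 0.012). ADA, the deaminase that removes adenosine, fell, with 3.14 ± 0.50 FPKM in shBLACAT3 cells and 5.12 ± 0.61 FPKM in shControl cells (log2 fold change -0.57, SE 0.12, limma adjusted p 0.036). The call of ADORA2B was lost without any 1 shControl library (0.054 to 0.057), and that of ADA without shBLACAT3 replicate 1 or 2 or any shControl library (0.065 to 0.13). SLC29A1, an adenosine transporter, had 20.9, 17.8 and 24.7 FPKM in shBLACAT3 cells, against 29.5, 28.2 and 28.2 FPKM in shControl cells, without passing (limma adjusted p 0.064). DPP4 of this list, under the filter, had 0.43 ± 0.04 FPKM in shBLACAT3 cells and 1.24 ± 0.20 FPKM in shControl cells. ENTPD1, ENTPD2, ENTPD3, ADORA1 and ADORA2A were not analysed here.

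Outside the set, the 5 genes whose pattern over the 6 libraries was most like that of ANKRD1, by Pearson's r on log2(FPKM + 1), were MTMR1, SERTAD2, SAA1, WIZ and PLOD3, each with r of 0.997 or 0.998. All 5 were called higher, SAA1 with a log2 fold change of 1.82 and PLOD3 with 1.51, and WIZ, SERTAD2 and MTMR1 with 0.32, 0.34 and 0.43. With 2 groups far apart such a correlation is set almost wholly by the group difference: 17 non-member genes exceeded 0.99, and within the set NT5E stood at -0.999. The call of WIZ was lost without any 1 library (adjusted p 0.053 to 0.14) and that of SERTAD2 without shBLACAT3 replicate 1 or any shControl library (0.051 to 0.065).

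The summed FPKM of the libraries ranged from 211958 to 226953 in shBLACAT3 cells and from 220543 to 225122 in shControl cells, and read depth is unknown. The level of BLACAT3 was not analysed here and gives no check of the labels. Of 16 urothelial and bladder carcinoma markers 6 were measured, KRT7, CD44, EGFR, PPARG and FOXA1 among them, with a summed level of 141 to 153 FPKM in shBLACAT3 and 148 to 157 FPKM in shControl libraries. Of the 5 tested, 3 had a higher and 2 a lower mean in shBLACAT3 cells. CD44 fell (log2 fold change -0.30) and was the one called. KRT7 had 32.0 ± 3.45 FPKM in shBLACAT3 cells and 19.97 ± 5.62 FPKM in shControl cells (log2 difference 0.69, limma adjusted p 0.097), and PPARG had 4.71 ± 0.31 FPKM in shBLACAT3 cells and 3.77 ± 0.43 FPKM in shControl cells (0.26, limma adjusted p 0.15), both without overlap and without passing. FOXA1 was lower in every shBLACAT3 library without passing (log2 difference -0.29, limma adjusted p 0.099). KRT6A, under the filter, stood at 0, 0.05 and 0 FPKM in shBLACAT3 cells, against 1.82, 1.13 and 1.33 FPKM in shControl cells. The uroplakins, GATA3, KRT5, KRT14, KRT19, KRT20 and TP63 were not analysed here. Of 6 epithelial markers 3 were measured (CLDN4, KRT8 and KRT18), with a summed level of 88.5 to 101 FPKM in shBLACAT3 and 153 to 191 FPKM in shControl libraries. KRT8 (log2 fold change -1.42) and KRT18 (-0.58) fell, both called by limma. CLDN4, under the filter, had 0.06 ± 0.04 FPKM in shBLACAT3 cells and 1.04 ± 0.24 FPKM in shControl cells. Of 9 blood, endothelial and muscle markers CD68 alone was measured, at 0.0038 to 0.62 FPKM in shBLACAT3 and 0.69 to 1.21 FPKM in shControl libraries. The part of these marker differences in the values of ANKRD1, NT5E and the other members was not tested.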

How the data were processed

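RNA-seq values were read from 1 table of 6 columns. The deposited values were taken as FPKM from their range and from the tools named, since the file header names no unit. Per the submitters' processing notes the tools included cutadapt, HISAT2 2.1.0 and StringTie; genome build, annotation and strand setting: not given in the sources used here, so overlapping genes may share reads. Columns headed NC and SH were read as shControl and shBLACAT3, numbered as in the titles. Of 11081 rows, 11026 were named through current symbols or GENCODE 29, and rows sharing a symbol were summed. In each row the higher group mean was at least 0.5, so lower genes were not analysed here. Limma 3.58.1 (R 4.3.3) was run on log2(FPKM + 1) for the 10008 genes whose mean reached 1 FPKM. Group was the only term, with a mean-variance trend, two-sided tests and Benjamini-Hochberg adjustment over all these genes at 0.05. The code was run on simulated data with independent noise and SDs shuffled between genes. That checks the code only and does not bear on how stable the calls are. FPKM holds no counts, so depth is unknown. Alternatives are given in the closing section.

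The members and lists were chosen with earlier results of these data known. Named were all members, list genes past the threshold (at most 5 per direction and list), every measured CCN, muscle ankyrin repeat and NUAK relative, and the 5 genes most like ANKRD1. A gene of the lists is not reported here. Named genes that did not pass, and the marker genes that did, were chosen after their values were seen. Figures were drawn with matplotlib 3.10.9.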

Additional observations from a re-analysis of the deposited data

How the results depend on the processing

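Of 938 genes called (257 higher, 681 lower), 612 were called with the replicate number as a block (replicate block) and between 387 (without shControl replicate 1) and 1315 (without shBLACAT3 replicate 3) with 1 library left out (85 to 583 higher, 302 to 732 lower). Without shBLACAT3 replicate 1 the count was 542 and without shControl replicates 2 and 3 it was 444 and 441. Without a filter, or at 0.1 FPKM, it was 1186. ANKRD1 (log2 fold change 2.64 to 3.22) and NT5E (-1.10 to -1.07) kept their call in every setting run. NUAK2 lost its call in 6 settings, so that 2 or 3 members were called throughout. The members were chosen on this contrast, so a call that is kept describes them and does not test them. The sign of 2 uncalled members turned: AMOTL2 (-0.24 to 0.27 with 1 library left out) with array weights (0.10) and without shBLACAT3 replicate 2 (0.27) or shControl replicate 2 (0.21), and WWTR1 (-0.071 to 0.078) with array weights (-0.00071) and without shBLACAT3 replicate 2 (-0.071) or shControl replicate 1 (-0.03) or 3 (-0.02). The cause was not tested. Of 25 called genes named beyond the members and the cell type markers, 11 passed in all 6 fits that left out a library and 14 did not. Of these 25, 0 changed sign in any setting. The called markers CD44, KRT8 and KRT18 were not followed over the settings. Counts per list over all settings were 1 to 3 of the Hippo kinases (2 as reported), 0 to 4 of the partners (2), 2 of the signature throughout, 4 to 7 of the other targets (7), 0 to 4 of the SRF genes (4) and 0 to 3 of the adenosine genes (2). The deviations of same-numbered libraries correlated with 0.10, 0.12 and 0.089 for replicates 1, 2 and 3, each library most with its own number, which is a hint from the data and not the design; the block is therefore not used above, and it ended the calls of BTRC, TEAD3, THBS1, FSTL1, TUFT1, CALD1, FHL1, ADA and WIZ (adjusted p 0.055 to 0.098). No scaling shifted the median log2 fold change of all genes by more than 0.03.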

Other observations

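Several pathway genes that were not called varied widely between libraries of the same group. PTPN14, a phosphatase that binds YAP, stood at 15.8, 15.3 and 15.2 FPKM in shBLACAT3 cells, against 16.7, 16.9 and 4.31 FPKM in shControl replicates 1, 2 and 3. FRMD6, an activator of the Hippo kinases, stood at 9.0, 19.8 and 9.24 FPKM in shBLACAT3 cells, against 7.66, 9.01 and 8.15 FPKM in shControl cells. AJUBA, a LIM protein that binds LATS, stood at 11.2, 13.0 and 6.53 FPKM in shBLACAT3 cells, against 6.75, 6.43 and 14.3 FPKM in shControl cells. YWHAB stood at 53.3, 63.2 and 119 FPKM in shBLACAT3 cells, against 107, 107 and 113 FPKM in shControl cells, and its paralog YWHAH at 84.9, 86.3 and 41.4 FPKM in shBLACAT3 cells, against 80.2, 73.3 and 80.2 FPKM in shControl cells. Of 10008 tested genes, 246 spread by a factor of at least 1.9 between libraries within both groups, AMOTL2 among them. That limit lies just under the 1.94 of AMOTL2 in shControl cells, so nothing is read from its place there. The genes named in this paragraph were chosen after their values were seen.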
